A study of Equus caballus with 78 samples.

Results

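The microRNAs described here had reads in plasma vesicles and none in synovial fluid vesicles. They were chosen by their reads, as the 50 horse microRNA names with at least 1 read in the 26 plasma libraries and 0 reads in all 52 synovial fluid libraries, out of 690 names in the files. Names numbered 8900 to 9200 were left out by the same rule, which leaves 397 names, of which 230 were read in plasma, 207 in synovial fluid and 180 in both. Because reads in the 2 fluids chose the 50 names, their absence from synovial fluid is the rule itself and was not tested.

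The samples are extracellular vesicles, membrane-bound particles that cells shed into body fluids, from 4 horses (numbered 2, 4, 6 and 8) studied as a model of osteoarthritis, in which joint cartilage wears away. Each horse gave plasma and synovial fluid, which lubricates the joints, of a joint labelled OA and of a joint labelled CTRL, with 26 libraries of each kind. The time points are 0, 10, 35, 42, 49, 56 and 63, for which the labels give no unit, and each of the 7 plasma groups holds 3 or 4 horses. The labels give no breed, age or method of disease induction, and plasma carries no joint label, so every plasma library comes from an animal that has both joints. Horse 4 at time point 10 and horse 2 at time point 63 were not analysed here.

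MicroRNAs are short RNAs cut from hairpin precursors and loaded into Argonaute proteins, where they repress messenger RNAs with matching sites. Either arm of a hairpin can give a mature microRNA, named 5p or 3p, and hairpins that lie close together are often transcribed as one precursor. Blood vesicles come from platelets, red cells, leukocytes, endothelium and, in smaller amounts, from solid tissues, and a microRNA with a narrow tissue range can mark such a source.

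Depth differed widely between the plasma libraries. Their microRNA reads ran from 3916 to 1865513 (median 14055), and those of the synovial fluid libraries from 4342 to 240294 (median 42073.5). In 3 plasma libraries microRNA was over 5% of the library total, namely horse 2 at time point 0 with 260030 microRNA reads, horse 6 at time point 10 with 613396 and horse 8 at time point 63 with 1865513. Pooled, plasma held 3256941 microRNA reads and synovial fluid 2384524.

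The 50 microRNAs together had 5099 reads, 0.157% of the plasma microRNA reads. Of these reads, 3563 (69.9%) came from the library of horse 8 at time point 63, and 4979 (97.6%) came from the 3 microRNA-rich libraries, which held 84.1% of all plasma microRNA reads. Reads of 44 of the 50 were present in the library of horse 8 at time point 63, and 32 of these 44 had reads in no other library. The library of horse 6 at time point 10 held 13 of the 50 with 1284 reads, and that of horse 2 at time point 0 held 2 with 132 reads. In the other 23 plasma libraries 120 reads of 8 of the 50 were found, spread over 8 libraries, and 15 libraries had none. Without the library of horse 8 at time point 63, 18 names had reads in plasma and none in synovial fluid. Without all 3 microRNA-rich libraries 8 names did, and the share of the 50 in the plasma microRNA reads was then 0.0232%. All plasma libraries and 10 of the synovial fluid libraries carry the number 1 at the same place of their file names. It may stand for a lane, which the labels do not state. In these 10, which held 296500 microRNA reads together, 87 names read in plasma had 0 reads.

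**Figure D1:**
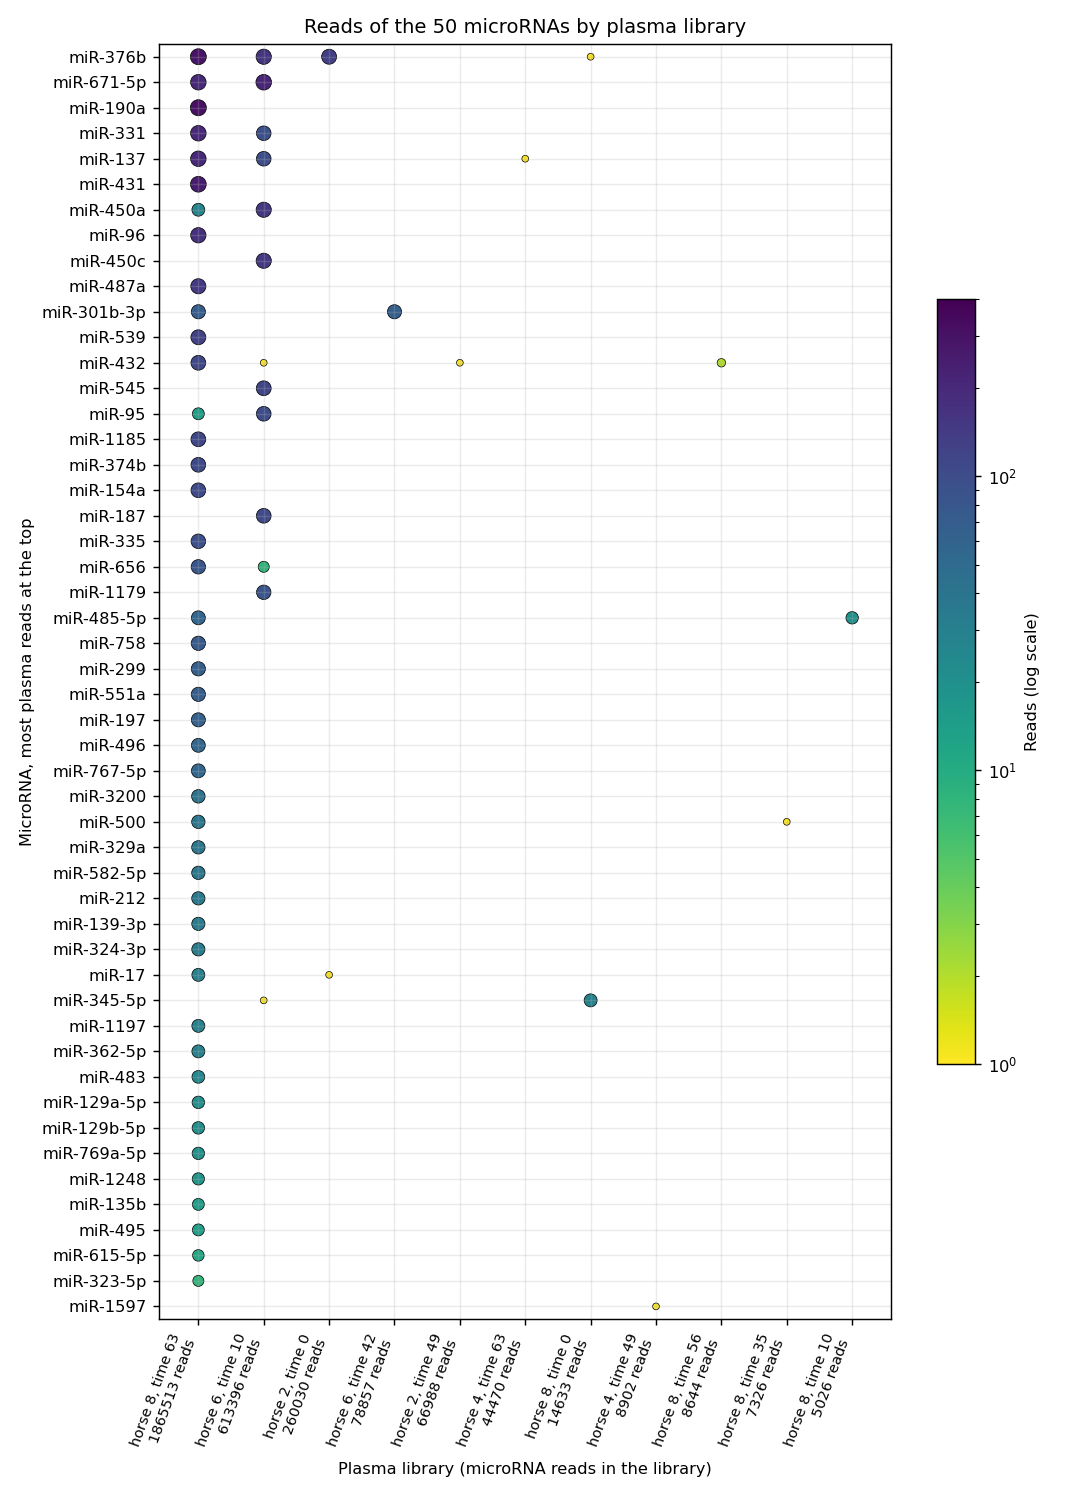
Reads of the 50 microRNAs (vertical, most plasma reads at the top) in the 11 plasma libraries that held any of them (horizontal, ordered by microRNA reads), with the size and colour of a point giving the reads on a log scale and no point meaning 0 reads. Most points stand in the column of horse 8 at time point 63, which held 44 of the 50, and the next deepest library held 13.

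Most of the 50 were seen in 1 library each. Of the 50, 37 had reads in 1 plasma library, 10 in 2, 1 in 3 and 2 in 4. Where a microRNA had reads, it usually had many: of 68 values above 0, 59 were between 8 and 316 reads, 9 were 1 or 2 reads, and none lay between. The reads carry no molecular identifiers known from the labels, so many reads need not stand for as many molecules, and the intervals below cover counting error only. No microRNA of the 50 was read in more than 4 of the 26 libraries.

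The 50 microRNAs took 0.191% of the microRNA reads in horse 8 at time point 63 (exact 95% binomial interval 0.185% to 0.197%) and 0.209% in horse 6 at time point 10 (0.198% to 0.221%). In horse 2 at time point 0 they took 0.0508% (0.0425% to 0.0602%). The highest share was that of horse 8 at time point 10, 0.378% (0.228% to 0.590%), which rests on 19 reads of 1 microRNA in a library of 5026 microRNA reads. How many of the 50 the deepest library held is set in part by the rule, since 32 of its 44 met the rule through that library alone. The third deepest, horse 2 at time point 0 with 260030 microRNA reads, held 2 of the 50, as did horse 8 at time point 0 with 14633.

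**Figure D2:**
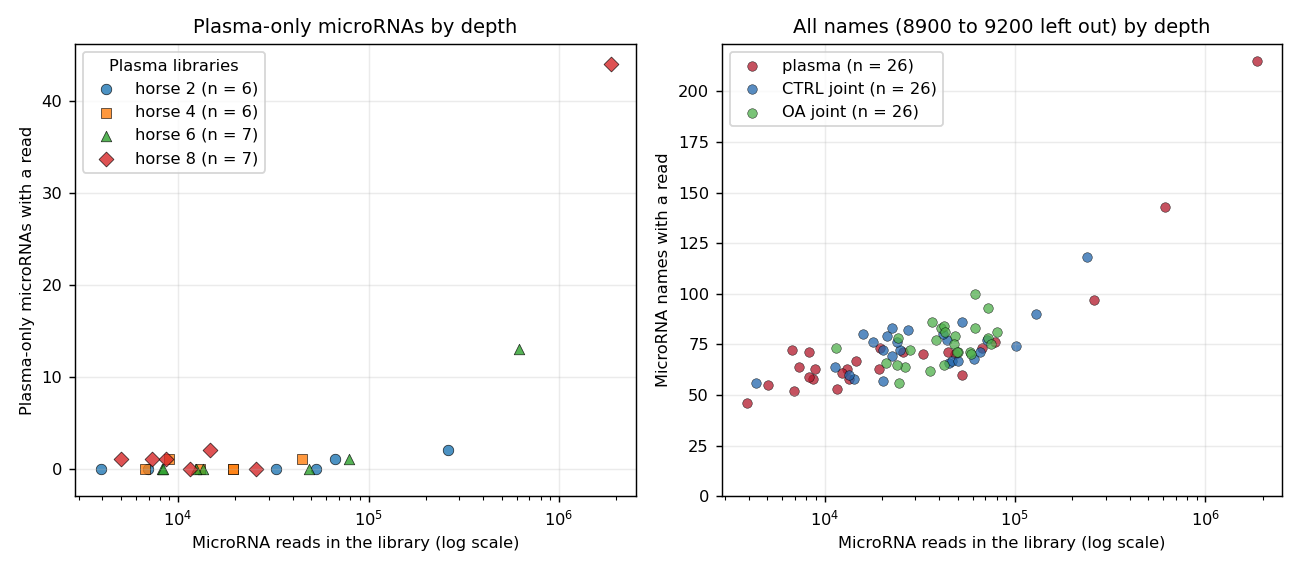
Left, the number of the 50 plasma-only microRNAs with a read against the microRNA reads of each of the 26 plasma libraries (log scale), by horse; right, the number of all names with a read (8900 to 9200 left out) against the same depth for all 78 libraries, by fluid and joint. The 2 deepest libraries held 44 and 13 of the 50 beside 171 and 130 other names, and the deepest synovial fluid library held 118 names.

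The 3 deepest plasma libraries held the most names of any kind among the plasma libraries. Beside the plasma-only ones, the library of horse 8 at time point 63 held reads of 171 names and that of horse 6 at time point 10 of 130. That of horse 2 at time point 0 held 97 names in all, against a median of 63 (46 to 76) in the other 23 plasma libraries. Synovial fluid libraries held a median of 74.5 names (56 to 118). The library of horse 8 at time point 63 was alone in reading 32 names, and the highest such number in a synovial fluid library was 4.

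Ranked by reads, the 120 most frequent names of the library of horse 8 at time point 63, all above 316 reads, were each read in synovial fluid too. The 44 plasma-only names stood below them, with 8 to 316 reads, or 4.29 to 169 CPM (counts scaled to 1000000 microRNA reads in the library), and a median of 30.0 CPM. In that range the library held 95 names, of which the other 51 were read in synovial fluid, with a median of 291 reads there in a median of 4 libraries. Of these 51, 12 had no read in another plasma library, against 32 of the 44. The 51 tended to have more reads in the library of horse 8 at time point 63 than the 44, and the sets were not matched on reads. The synovial fluid pool would hold 3 reads of a microRNA at 1.26 CPM, the limit that 0 reads over its 2384524 reads allow, although reads of a microRNA are clumped in few libraries, so that this limit is too low for a single library. At its level of 169 CPM, miR-190a would have 2.38 reads in a plasma library of median depth and 7.13 in a synovial fluid library of median depth. At 4.29 CPM, miR-323-5p would have 0.0603 and 0.180 reads. Both levels come from the 1 library through which these names met the rule, so they need not hold in other libraries.

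**Figure D3:**
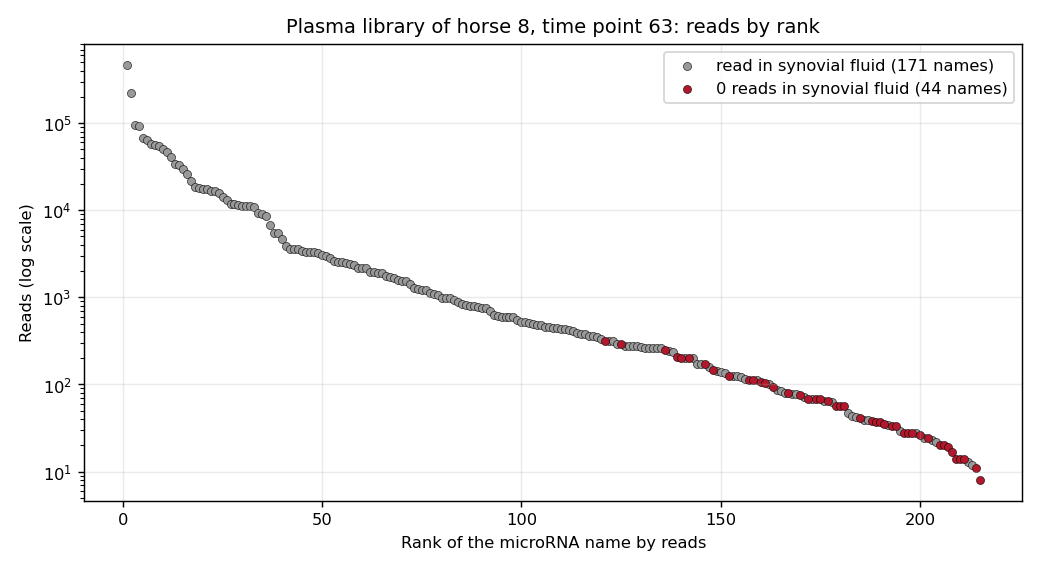
Reads (log scale) of the microRNA names in the plasma library of horse 8 at time point 63 by rank, red where the name had 0 reads in synovial fluid and grey where it had reads there. The 44 red points all lie among the lower ranks, between 8 and 316 reads, where they are mixed with 51 grey ones.

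The make-up of the 3 microRNA-rich libraries differed from that of the other plasma libraries in marker microRNAs as well. The 4 erythrocyte names (miR-144, miR-451 and both arms of miR-486) made up from 0.0607% (horse 8 at time point 63) to 4.63% of the microRNA in the 3 libraries and 13.7% to 77.4% in the other 23 (median 42.4%). The 6 platelet names took 19.4% to 22.5% in the 3 libraries and 0.415% to 20.4% (median 3.54%) in the others. They are miR-197, miR-221, miR-222, miR-223 and both arms of miR-126. In horse 8 at time point 63, miR-221 stood at 120135 CPM and miR-222 at 30964, but miR-223 at 45.0 and miR-197 at 34.3. The 3 myeloid leukocyte names, miR-223 among them, took 0.0166% to 0.0396% in the 3 libraries. In the others they took 0% to 3.92% (median 0.236%). The 2 endothelial names, both arms of miR-126 and so counted in the platelet share too, took 5.53% to 7.34% against 0.0779% to 8.81% (median 1.85%). The 13 fibroblast and mesenchymal names took 7.06% to 9.35% against 0.208% to 13.8% (median 3.35%). The liver microRNA miR-122 was at 0 reads in the 3 libraries, but its median share in the other 23 was 0% as well (highest 0.414%). The part of these cell types in the reads of the 50 microRNAs was not tested. Different amounts of vesicles and different amounts of RNA per vesicle cannot be told apart in these data.

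The largest group among the 50 came from DLK1-DIO3, an imprinted domain of placental mammals that expresses its microRNAs from the maternal chromosome and is active in embryo, placenta, brain and muscle. Of 53 listed names of this cluster, 40 were read in plasma and 25 in synovial fluid, and 16 were read in plasma alone. That is 40% of the listed names read in plasma, where the share over all names is 21.7% (50 of 230), given as a description with no test. The 16 had 1890 reads, 37.1% of the reads of all 50, and each was read in the library of horse 8 at time point 63, where they had 8 to 294 reads. In 12 of the 16 that was the single library with reads.

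miR-376b, which shares its family name with miR-376a and miR-376c of the same cluster, had the most reads of the 50. It had 131 reads in horse 2 at time point 0, 1 in horse 8 at time point 0, 159 in horse 6 at time point 10, 294 in horse 8 at time point 63 and 0 in the other 22 plasma libraries. Its level was thus 504 CPM in horse 2 at time point 0 (exact 95% interval 421 to 598), 259 CPM in horse 6 (220 to 303) and 158 CPM in horse 8 at time point 63 (140 to 177). It was the one member read in all 3 microRNA-rich libraries, with its lowest CPM of the 3 in the deepest. Its relatives were read in both fluids, miR-376a with 4686 plasma reads and reads in 11 synovial fluid libraries and miR-376c with 9273 and 727 reads. How reads shared by near-identical members were counted is not given in the sources used here, so reads may be split between the 3.

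miR-431 (247 reads), miR-487a (147 reads) and miR-539 were each read in horse 8 at time point 63 and had 0 reads in the other 25 plasma libraries. Their levels there were 132 CPM (interval 116 to 150), 78.8 CPM (66.6 to 92.6) and 67.5 CPM (56.3 to 80.4). The close relative of miR-487a, miR-487b, had 7116 reads in 14 plasma libraries and 997 in 15 synovial fluid libraries. miR-432 was read in 4 plasma libraries, but 113 of its 117 reads lay in horse 8 at time point 63, beside 2 reads in horse 8 at time point 56 and 1 each in horse 6 at time point 10 and horse 2 at time point 49. The other 11 of the cluster had 8 to 112 reads in all: miR-1185, miR-154a, miR-656, miR-485-5p, miR-758, miR-299, miR-496, miR-329a, miR-1197, miR-495 and miR-323-5p. Of these, miR-656 had 8 reads in horse 6 at time point 10 and 80 in horse 8 at time point 63.

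Members of the cluster also stood just outside the rule. With exactly 1 read in synovial fluid were miR-708 (2439 plasma reads), miR-485-3p (1300), miR-134 (1056), miR-136 (849) and miR-379 (100), of which all but miR-708 belong to DLK1-DIO3. miR-134 stood at 1161 CPM in horse 2 at time point 0 and at 846 CPM in horse 6 at time point 10 (519 reads), and it had 235 reads in horse 8 at time point 63, with 0 in the others, the same 3 libraries that held nearly all reads of miR-376b. miR-485-3p also stood at 18985 CPM in horse 4 at time point 0, a library of 19331 microRNA reads that is not rich in microRNA. Just inside the rule stood miR-1597, a name first given in chicken, with a single read, in horse 4 at time point 49. The other 24 names of the cluster that were read in plasma had 71508 plasma reads and 9899 synovial fluid reads, led by miR-127 with 17937 and 3384. In the opposite direction, miR-380 had 243 synovial fluid reads and 0 in plasma.

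**Figure D4:**
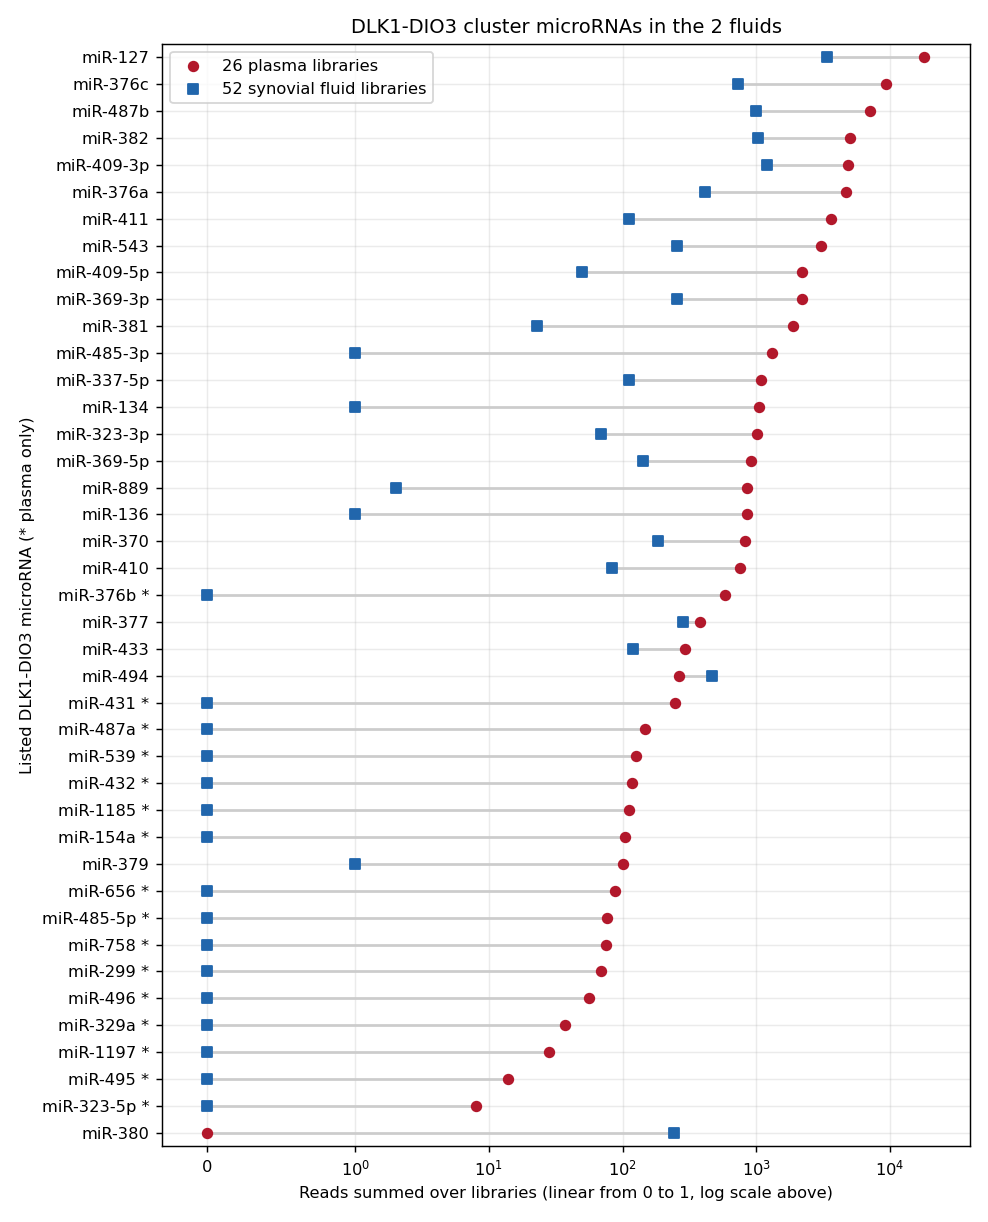
Reads of the 41 listed DLK1-DIO3 microRNAs with any read, summed over 26 plasma libraries (circles) and 52 synovial fluid libraries (squares), on a scale that is linear from 0 to 1 and logarithmic above, with a star at the 16 plasma-only names. Plasma reads lie above synovial fluid reads for all but miR-494 and miR-380, and the starred names have 8 to 585 plasma reads.

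Among the members known for nervous tissue, miR-137, which controls the maturation of neurons, had 97 reads in horse 6 at time point 10, 201 in horse 8 at time point 63 and 1 in horse 4 at time point 63. These are 158 CPM (interval 128.2 to 192.9), 108 CPM (93.4 to 123.7) and 22.5 CPM (0.569 to 125.3), and the other 23 plasma libraries had 0. miR-129a-5p and miR-129b-5p had 20 reads each, in horse 8 at time point 63, so that the same reads may stand under both names. Of 14 listed nervous system names 6 were read in plasma, 4 in synovial fluid and these 3 in plasma alone. Another 3 were read in both fluids, 1 in synovial fluid alone and 7 in neither. The plasma-only names held 339 of the 5462 plasma reads of the list, which had 3392 reads in synovial fluid. They were 50% of the listed names read in plasma, where the share over all names is 21.7%, and the difference was not tested.

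miR-96 belongs with miR-182 and miR-183 to a cluster known from hair cells of the inner ear and from photoreceptors. It had 173 reads in horse 8 at time point 63, or 92.7 CPM (interval 79.4 to 108), and 0 in the other 25 plasma libraries. Its cluster mates were read in both fluids, miR-182 in 8 plasma and 26 synovial fluid libraries (1087 and 2253 reads) and miR-183 in 2 and 4 libraries (435 and 190 reads). The hairpins of one cluster thus stood on both sides of the rule.

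Members on the X chromosome in human and mouse came from several clusters. miR-450a, of the cluster that also gives miR-424 and miR-503, had 152 reads in horse 6 at time point 10 (248 CPM, interval 210 to 290) and 26 in horse 8 at time point 63 (13.9 CPM, 9.10 to 20.4), with 0 in the other 24. miR-450c also had 152 reads in horse 6 at time point 10 and 0 elsewhere, so reads may stand under both names in that library. Their cluster mate miR-424 had 987 plasma and 3 synovial fluid reads, and miR-503 had 0 plasma and 52 synovial fluid reads. miR-362-5p (28 reads) and miR-500 (39 reads, of which 1 was in horse 8 at time point 35) belong to the cluster of miR-532 and miR-660, which were read in both fluids (miR-532-5p with 1784 plasma and 2614 synovial fluid reads). Over both clusters 19 names were listed, of which 11 were read in plasma, 11 in synovial fluid, 4 in plasma alone and 4 in synovial fluid alone (miR-503, miR-188-5p, miR-501-5p and miR-502-5p). miR-545, with 116 reads in horse 6 at time point 10, and miR-374b, with 106 in horse 8 at time point 63, both lie in the FTX gene, a regulator of X inactivation, but were read in different libraries. miR-767-5p, from an intron of GABRA3, had 56 reads in horse 8 at time point 63.

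The members outside these clusters included 4 of the 12 with the most reads. miR-671-5p, known in human and mouse for cutting the circular RNA CDR1as, had 421 reads, of which 204 were in horse 8 at time point 63 (109 CPM, interval 94.9 to 125.4) and the rest in horse 6 at time point 10 (354 CPM, 308 to 404), with 0 in the other 24 plasma libraries. miR-190a, encoded in an intron of the talin gene TLN2, had 316 reads in horse 8 at time point 63 (169 CPM, interval 151 to 189) and 0 in the other 25, the highest count of the 50 in a library. miR-331 had 301 reads, 95 in horse 6 at time point 10 and the rest in horse 8 at time point 63, or 154.9 CPM (interval 125.3 to 189.3) and 110.4 CPM (95.9 to 126.6), with 0 in the other 24. miR-301b-3p, which shares a cluster with miR-130b, had 66 reads in horse 6 at time point 42 (837 CPM, interval 647 to 1065) and 68 in horse 8 at time point 63 (36.5 CPM, 28.3 to 46.2). It was the one member with over 50 reads in a library that is not rich in microRNA, and its cluster mate miR-130b was read in both fluids (890 and 229 reads).

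Of the members with fewer reads, several lie in known host genes or clusters. miR-335 (94 reads), from the imprinted gene MEST, miR-483 (24 reads), from the growth factor gene IGF2, miR-139-3p (33 reads), from PDE2A, and miR-615-5p (11 reads), from the HOXC cluster, were each read in horse 8 at time point 63 alone. miR-212 (35 reads) is transcribed with miR-132, an activity-induced microRNA, which had 1500 plasma reads and 119 in synovial fluid. miR-17 had 28 reads in horse 8 at time point 63 and 1 in horse 2 at time point 0, while its cluster mates miR-19b and miR-92a had 29931 and 44184 plasma reads and 28371 and 102119 synovial fluid reads. miR-197, on the platelet list, had 64 reads, and the other 5 names of that list were read in both fluids. miR-95 (114 reads), miR-187 (103) and miR-1179 (83) had all or most of their reads in horse 6 at time point 10. miR-551a (69), miR-3200 (41), miR-582-5p (37), miR-324-3p (33), miR-769a-5p (19), miR-1248 (17), which overlaps a small nucleolar RNA in human, and miR-135b (14) were read in horse 8 at time point 63 alone.

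Other listed sources gave few or no members. None of the 50 came from the lists for striated muscle (2 of 8 names read in plasma), liver (1 of 1), gut and kidney (3 of 3), endocrine and pancreas (1 of 4), epithelium (5 of 6), ciliated cells (3 of 6), erythrocytes (4 of 4), myeloid leukocytes (3 of 3), lymphocytes (4 of 4), endothelium (2 of 2), fibroblasts and mesenchyme (13 of 13) or chondrocytes (2 of 2). Under the rule this says only that each of these plasma-read names was also read in synovial fluid. Over all names read in plasma the share of members was 21.7%. The X-linked testis list (10 names), the pluripotent stem cell list (8) and the melanocyte microRNA miR-211 had 0 plasma reads. Of the 50, 24 stood in no list.

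Both arms of a hairpin were listed for the 14 members named with an arm. The other arm was read in both fluids for 7, in synovial fluid alone for 3 and in neither fluid for 4 (miR-129a, miR-129b, miR-301b and miR-767). For 6 of the 7 the other arm had more plasma reads than the member: miR-485-3p (1300 against 76), miR-323-3p (1016 against 8), miR-139-5p (922 against 33), miR-362-3p (771 against 28), miR-324-5p (408 against 33) and miR-615-3p (281 against 11). In synovial fluid miR-485-3p had only 1 read and miR-615-3p only 2, and the others of these had 69 to 546. The less frequent arm of these hairpins in plasma was the one with 0 synovial fluid reads, which the rule itself asked of the members. miR-671 was the exception. Its 5p arm had 421 plasma and 0 synovial fluid reads. Its 3p arm had 28 plasma reads, all in horse 8 at time point 63, and 403 synovial fluid reads in 7 libraries of horses 2 and 8. The highest was 146, in the OA joint of horse 2 at time point 56. Further libraries held 103, 96 and 55, and the rest of the 7 held 1 read each.

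The 3 hairpins with arms on opposite sides had few reads. miR-345-5p had 28 reads in horse 8 at time point 0 and 1 in horse 6 at time point 10, and miR-345-3p had 48 reads in 1 synovial fluid library. miR-769a-5p had 19 plasma reads against 17 of miR-769a-3p in 1 synovial fluid library, and miR-582-5p 37 against 3 of miR-582-3p in 1 library. Each of these differences between arms rests on 1 library in a fluid, apart from the single further read of miR-345-5p, and none was tested.

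**Figure D5:**
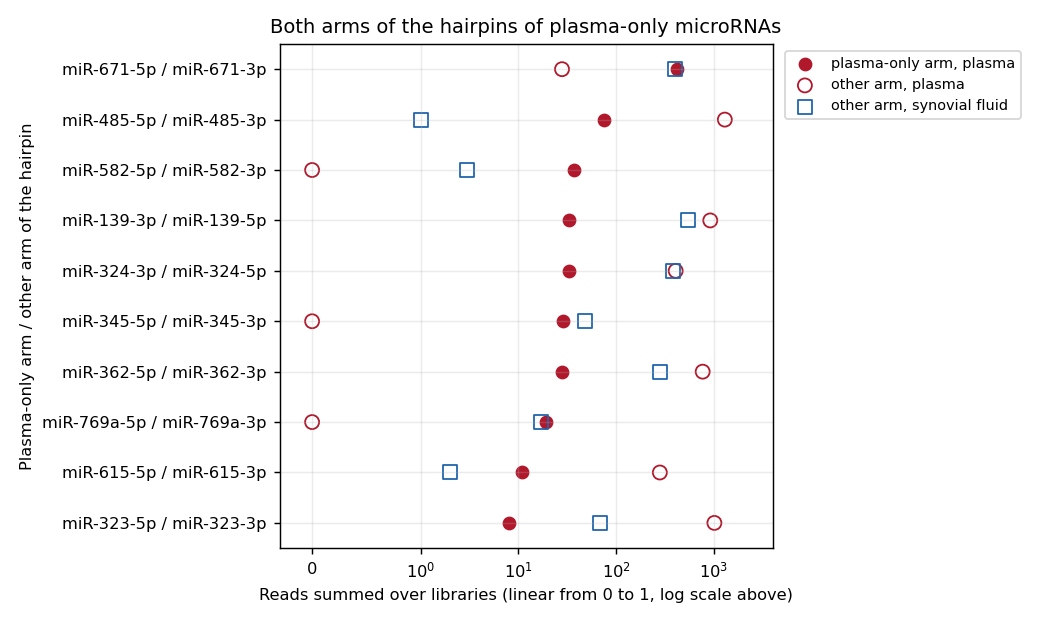
Reads of the plasma-only arm in plasma (filled circles) and of the other arm in plasma (open circles) and synovial fluid (open squares), summed over libraries, for the 10 hairpins whose other arm had a read, on a scale that is linear from 0 to 1 and logarithmic above. The other arm lies to the right in plasma for 6 hairpins, while miR-671-3p has 28 plasma and 403 synovial fluid reads.

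The rule did not use the time points, so change over time within plasma was fitted. The fit asks whether vesicle microRNAs of the blood differed between time points. Every horse had a joint labelled OA, so time and joint disease cannot be told apart in plasma. For the 50 the fit is not independent of the rule, since 37 met it through 1 library, and so at 1 time point. Calls among the 50 are therefore given as a description. edgeR's quasi-likelihood F-test over the 7 time points, with 3 or 4 horses at each, called 10 of 92 features (10.9%) at a Benjamini-Hochberg adjusted p under 0.05, but 0 of the 50 microRNAs could be tested. The libraries are repeat samples of 4 horses, and with horse as a block edgeR called 0 of the 92 (12 at an unadjusted p under 0.05). DESeq2 called 0 of 84 (11 at an unadjusted p under 0.05), and edgeR with RLE scaling called 1 of 92. The filter asked for 711 CPM in 3 libraries, and 3 of the 50 reached that level, each in 1 library. Without the filter all 50 entered the fit, and edgeR called 2 of them, against 35 of 234 features (15%), with 11 of the 50 and 81 of the 234 (34.6%) at an unadjusted p under 0.05.

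The 2 called without the filter were miR-485-5p (adjusted p = 0.0240) and miR-345-5p (adjusted p = 0.0254), both carried by 1 small library. miR-485-5p had 19 reads in horse 8 at time point 10 (3780 CPM, interval 2278 to 5897), 57 in horse 8 at time point 63 (30.6 CPM) and 0 in the other 24, and miR-345-5p had 28 reads in horse 8 at time point 0 (1913 CPM, 1272 to 2764). With horse as a block and no filter, edgeR called neither (adjusted p = 1.00 each) and 3 of 234 features. DESeq2 without the filter called 0 of the 19 members to which it gave an adjusted p, of which 0 had an unadjusted p under 0.05, and it gave none to miR-485-5p. In the single contrasts of each later time point against time point 0, edgeR without the filter called 0 of the 50 and 0 or 1 of the 234 features, with 1 to 8 of the 50 and 14 to 32 of the 234 at an unadjusted p under 0.05.

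Most reads of the 50 came from time points 63 and 10, which also held 1918288 and 651186 of the 3256941 plasma microRNA reads. Time point 63 held 3564 of the 5099 reads, of which horse 8 had 3563, horse 4 had 1 and horse 6 had 0. Time point 10 held 1303, of which horse 6 had 1284, horse 8 had 19 and horse 2 had 0. Time point 0 held 161, time point 42 held 66, and time points 35, 49 and 56 held 1 or 2 each. The 66 reads of time point 42 were those of miR-301b-3p in horse 6. By horse, the 7 plasma libraries of horse 8 held reads of 45 of the 50, among 1938421 microRNA reads. The 7 of horse 6 held 14 (783136 reads), the 6 of horse 2 held 3 (423401) and the 6 of horse 4 held 2 (111983). Horse 4 was the one with no library over 5% microRNA.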

How the data were processed

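The files hold, for 78 libraries, raw read counts deposited by the authors for 690 horse microRNA names and 3 spike-ins, an RPM column of the library total by the authors and a deposited score, reads scaled to the microRNA sum. Per the labels the kit was TriLink CleanTag, and per the submitters' processing notes cutadapt, Bowtie, edgeR and EquCab3.0 were used, with versions and counting rules not given in the sources used here. RPM served to recover library totals. Names with reads were counted from the raw counts, and CPM is reads scaled to 1000000 microRNA reads of a library. No 2 libraries held identical values.

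Plasma over time was fitted on the 26 plasma libraries in R 4.3.3 by the quasi-likelihood F-test of edgeR 4.0.16, with TMM scaling, a filterByExpr count minimum of 10 and Benjamini-Hochberg adjustment. The script was tested on simulated data, with DESeq2 1.42.0 and horse as a block as alternatives. The blocks are the same animals; the median correlation of deviations from time point means was -0.0265 within a horse and -0.00182 between horses. Exact binomial intervals used scipy 1.17.1 in Python 3.11.15. Members and lists were chosen with earlier results of these data known. Members among the 12 with the most plasma reads, or read in 5 or more plasma libraries, are given by library, the others mostly by totals, and the 5 names with the most plasma reads among those with 1 synovial fluid read are given as just outside. Libraries are repeat samples of 4 horses. Reference sequences were not used here.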

Additional observations from a re-analysis of the deposited data

Results flagged for a closer look

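In plasma groups of 4 horses, 17 sets of values that were not all equal were screened for a library far from the other 3, and 11 were picked out. Chance alone picks out about 1 set in 20 of well-behaved values, and any set with 3 libraries at 0 and 1 above is picked out whatever the value. The microRNA reads of horse 2 stood apart at time point 0 (260030) and at time point 35 (52751). At time point 0 miR-376b stood apart with 131 reads in that same library of horse 2. At time point 42 miR-301b-3p stood apart with 66 reads in horse 6, and with it the plasma-only share of that library (0.0837%) and its number of members read (1). At time point 35 horse 8 stood apart with a share of 0.0137% and 1 member read, at time point 56 horse 8 with 0.0231% and 1 member, and at time point 49 horse 4 with 0.0112%, the last 3 resting on 1 or 2 reads each.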

How the results depend on the processing

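The number of plasma-only names was 50, and 13 with at least 2 plasma libraries required and 8 without the 3 microRNA-rich libraries. It was 87 against the 10 synovial fluid libraries (296500 microRNA reads) with the number 1 in their file names, as all plasma libraries have. Leaving out a horse gave 18 to 62, with 18 also without the library of horse 8 at time point 63. The alternatives by file-name number and without the deepest library were chosen after seeing the data. The other alternatives gave 49 to 66. The share of plasma microRNA reads, 0.157%, was 0% as the median over libraries, 0.0232% without the 3 rich libraries, 0.110% without the deepest, and 34.2 RPM of the library total. Over time in plasma, 10 features were called, against 1 with RLE scaling, 0 in DESeq2 (11 at an unadjusted p under 0.05), 35 without the filter, and 0 with horse as a block in edgeR (12 at an unadjusted p under 0.05). Leaving out a horse gave 1 to 7. Added after seeing the data, DESeq2 without the filter called 0 (12 at an unadjusted p under 0.05), the block without the filter 3, and no filter without the deepest library 30. Of the plasma-only names 2 were called without the filter and the same 2 without the filter and the deepest library. The cause of these differences was not tested. Of the 26 plasma libraries 15 held none of the 50.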

Other observations

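The opposite set, read in synovial fluid and not in plasma, held 27 names with 3887 reads, 0.163% of the synovial fluid microRNA reads. Of these 27, 15 (55.6%) were read in 1 library, against 37 of the 50 plasma-only names (74%), and the most libraries any of the 27 reached was 6. The shares are not on equal terms. Synovial fluid had 52 libraries (median 42073.5 microRNA reads) and plasma 26 (median 14055), and the deepest plasma library held 57.3% of the plasma microRNA reads. The most frequent of the 27 was miR-211, a microRNA from an intron of the melanocyte gene TRPM1, with 519 reads in 6 synovial fluid libraries. It was followed by miR-489 with 462 in 3 and miR-1379 in 5. miR-206, a skeletal muscle microRNA, had 101 reads in 1 library.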
